A study of Homo sapiens with 8 samples.

Results

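The beta-catenin destruction complex was examined through 10 genes of its core, AXIN1, AXIN2, APC, GSK3A, GSK3B, CTNNB1, CSNK1A1, BTRC, TNKS and TNKS2, chosen by symbol from the 58206 genes of the count table. All 10 passed the expression filter and were among the 14289 genes tested. RNA came from Alexander1, an established epithelial line of human hepatocellular carcinoma, in 8 libraries. The 4 parental libraries carried the genotype label wt (Axin1 -), which stands for an AXIN1 without its GSK3-binding region and a Wnt pathway that is permanently active according to the series text. The other 4 carried the label Axin1 + and came from a stable derivative into which full-length Axin1 was brought by a VSVG retroviral plasmid, with clonal selection in hygromycin B. The labels give that treatment text for all 8 samples. They name neither the number of clones, nor the promoter of the transgene, nor whether replicates were separate cultures, so p-values measure the spread between these libraries, which may be technical. The derivative is called restored-labelled below, because its gene-level AXIN1 count gave no check of the label.

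In canonical Wnt signalling the scaffold proteins Axin and APC hold beta-catenin close to the kinases CK1 alpha and GSK3. CK1 alpha phosphorylates beta-catenin first, GSK3 continues, and the F-box protein encoded by BTRC recognises the phosphorylated stretch and hands it to a ubiquitin ligase for destruction. Axin is the limiting scaffold in many cells, and its own amount is held down by the tankyrases TNKS and TNKS2. AXIN2 is a transcriptional target of beta-catenin and returns a brake on the pathway. In the liver this pathway patterns the lobule, and CTNNB1, AXIN1 and APC are recurrently mutated in liver tumours.

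The part of beta-catenin on which the complex acts is encoded in exon 3 of CTNNB1. Its reference sequence from GENCODE on GRCh38 is shown for codons 29 to 48, because every kinase and ligase member described below meets its substrate there, and capitals mark codons 33, 37, 41 and 45. CK1 alpha acts at the residue of codon 45, and GSK3 at those of codons 41, 37 and 33.
CTNNB1, chr3:41224597-41224656, plus strand: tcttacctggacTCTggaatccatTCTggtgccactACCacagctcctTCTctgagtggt
Promoter windows of 250 bases before the start, from RefSeq on GRCh38.p14, were found for 7 of the 10 members. AXIN2, BTRC and TNKS had no listed window. AXIN1 is shown as the targeted gene and APC, at the first of its 2 listed starts, as the member with the steadiest difference. Capitals mark the GC box GGGCGG on either strand, overlapping matches counted separately.
AXIN1 promoter, chr16:352724-352973, minus strand: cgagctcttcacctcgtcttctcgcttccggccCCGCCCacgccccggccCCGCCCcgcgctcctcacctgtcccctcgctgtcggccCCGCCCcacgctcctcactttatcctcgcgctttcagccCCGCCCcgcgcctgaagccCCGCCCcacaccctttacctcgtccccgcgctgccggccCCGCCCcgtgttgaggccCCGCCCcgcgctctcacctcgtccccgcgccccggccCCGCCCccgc
APC promoter, chr5:112707248-112707497, plus strand: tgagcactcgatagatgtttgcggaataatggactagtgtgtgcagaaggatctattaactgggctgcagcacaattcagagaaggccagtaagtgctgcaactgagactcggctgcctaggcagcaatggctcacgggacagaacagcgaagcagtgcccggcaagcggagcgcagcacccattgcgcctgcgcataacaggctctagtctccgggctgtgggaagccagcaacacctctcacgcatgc
The AXIN1 window held 8 GC boxes at a GC content of 77.6%, and the APC window shown held 0 at 56.4%. At the second listed start of APC the window held 1 GC box at 70%. A GC box was present in 42.6% of all 35116 windows of this length, and 4.15% held 5 or more. The motif CTTTG, the core of TCF binding sites, was searched on both strands, and a match could overlap a GC box. It was found in 1 of the members' 9 listed windows, that of TNKS2, and in 42.1% of all windows. The promoter of AXIN2, the member that is a target of beta-catenin, was not searched, as it had no window.

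Library totals lay between 11232951 and 15263761 counts in the parental and between 12372436 and 26400782 in the restored-labelled group. Hepatocyte-lineage markers were detected throughout, all 11 of 11 being tested, with summed levels of 26930 to 31590 CPM (counts scaled to the library total and TMM-normalised) in the parental and 18540 to 22750 CPM in the restored-labelled libraries. SERPINA1 was the largest term, at means of 16130 and 10360 CPM. In the restored-labelled libraries SERPINA1 and TF were called lower (log2 fold changes -0.64 and -0.94) and TTR higher (1.76). None of the others passed, with ALB at 1.51 and AFP at -1.14. Of 4 endothelial markers PECAM1 was tested, at means of 5.18 and 48.2 CPM, while VWF, CDH5 and KDR had at most 6 counts in any library. PECAM1 was called higher (log2 fold change 3.22, edgeR adjusted p = 8.45e-06). The endothelial sum was 4.58 to 6.77 CPM in the parental and 34.1 to 58.5 CPM in the restored-labelled libraries. Of 5 leukocyte markers LYZ was tested and not called, at means of 771 and 764 CPM. PTPRC had at most 2 counts, CD3E 0, CD14 at most 6 and CD79A at most 7. The leukocyte sums, 421 to 949 and 672 to 920 CPM, were thus almost wholly LYZ. Of 5 fibroblast markers 2 were tested, with sums of 2.67 to 3.15 and 1.18 to 4.59 CPM. These 2 went in opposite directions. PDGFRB was called lower, at means of 1.69 and 0.221 CPM (log2 fold change -2.87, edgeR adjusted p = 0.00454). COL1A1 had a log2 fold change of 0.81 and did not pass. The part of these markers in the differences of the members was not tested. On the first 2 principal components, which carried 55.9% and 20.9% of the variance, parental replicate 1 stood apart from the other parental libraries on the second and restored-labelled replicate 1 lay nearest to the parental group on the first. Parental replicate 1 also had the lowest level of low-GC relative to high-GC genes, with a median log2 difference of -0.47, and restored-labelled replicate 4 the highest, at 0.42. The other 6 libraries lay between -0.17 and 0.19. Calls that depend on any 1 library are given with and without it.

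AXIN1 (ENSG00000103126, chromosome 16, 287440 to 352673, minus strand; all gene coordinates are those of GENCODE 29 on GRCh38) encodes the scaffold that the derivative was made to restore. Its counts were 621, 780, 532 and 757 in parental replicates 1 to 4 and 1327, 582, 979 and 966 in the restored-labelled ones. On the CPM scale these became 55.3, 52.8, 47.4 and 54.2 against 47.6, 48.0, 48.2 and 37.7. The restored-labelled libraries were thus not higher, and the groups overlapped. Its difference, always given as restored-labelled over parental, amounted to -0.21 on the log2 scale (SE 0.12, edgeR adjusted p = 0.267 over all genes tested; exact two-sided permutation p = 0.114). In its neighbourhood on chromosome 16 the 31 nearest tested genes (up to 20 on each side) had a median log2 fold change of -0.28, so AXIN1 differed from its neighbours by 0.07. The labels do not give the species of the introduced Axin1, so whether its reads were counted under AXIN1 is not known, and endogenous and introduced transcripts cannot be told apart in a gene-level count.

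AXIN2 (ENSG00000168646, chromosome 17, 65528563 to 65561647, minus strand), the inducible relative of AXIN1 and a reporter of beta-catenin activity, was scarce. The parental libraries gave 1.51, 4.33, 5.08 and 4.01 CPM in replicate order, from 17 to 64 counts. The restored-labelled libraries gave 3.23, 1.65, 3.89 and 3.20 CPM, from 20 to 90 counts. The lowest library of each group, parental replicate 1 and restored-labelled replicate 2, had similar values, and the groups overlapped. The log2 fold change of -0.31 had a 95% confidence interval of -1.12 to 0.51 (edgeR adjusted p = 0.598), which holds changes in both directions. Without parental replicate 1 the value was -0.56 and without restored-labelled replicate 2 it was -0.12. In the annotation 25.2% of its exon bases are shared with a gene on the same strand that had 0 counts in every library.

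APC (ENSG00000134982, chromosome 5, 112707498 to 112846239, plus strand), the tumour suppressor that scaffolds beta-catenin beside Axin, showed the clearest difference among the members. It stood at 7.30, 10.4, 11.7 and 12.5 CPM in the parental and at 19.5, 19.6, 20.1 and 28.1 CPM in the restored-labelled libraries. Every restored-labelled library was above every parental library, and restored-labelled replicate 4 stood above its group. APC rose by 1.06 on the log2 scale (2.08-fold, SE 0.20, edgeR adjusted p = 0.00546; exact two-sided permutation p = 0.0286, the smallest that 4 against 4 libraries allow). The call held in all 19 alternative analyses, with values from 0.91 without restored-labelled replicate 4 to 1.15 without parental replicate 4. The 40 neighbouring genes had a median log2 fold change of 0.59, which left a difference of 0.47 between APC and its neighbourhood. Whether that regional difference has a part in the rise of APC was not tested.

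Of the 3 kinase genes, GSK3A and CSNK1A1 were called higher and GSK3B did not pass. GSK3A (ENSG00000105723, chromosome 19, 42230186 to 42242625, minus strand), the alpha form of GSK3, stood at 102.6, 79.9, 69.0 and 74.3 CPM in the parental and at 110.0, 138.9, 138.3 and 111.5 CPM in the restored-labelled libraries. The groups did not overlap, although parental replicate 1 came close to restored-labelled replicate 1. GSK3A rose by 0.61 on the log2 scale (1.53-fold, SE 0.15, edgeR adjusted p = 0.0179). The call was lost without parental replicate 2, parental replicate 3 or restored-labelled replicate 3, with edgeR adjusted p of 0.0581, 0.0525 and 0.0591. The 40 neighbouring genes had a median of 0.36.

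GSK3B (ENSG00000082701, chromosome 3, 119821323 to 120094417, minus strand), the beta form, stood at 38.5, 42.7, 42.6 and 42.7 CPM in the parental and at 38.3, 28.6, 31.0 and 36.6 CPM in the restored-labelled libraries. The groups were separated only by the small gap between both replicates 1. GSK3B had a log2 fold change of -0.31 (SE 0.13), and the 95% confidence interval ran from -0.60 to -0.02. Its exact two-sided permutation p was 0.0286, and its edgeR adjusted p of 0.129 over all genes did not pass the threshold of 0.05. It passed once the GC and length trends of the libraries were offset (log2 fold change -0.38, edgeR adjusted p = 0.0261). With no expression filter the edgeR adjusted p of GSK3B was 0.365.

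CSNK1A1 (ENSG00000113712, chromosome 5, 149492197 to 149551552, minus strand), which encodes CK1 alpha, the priming kinase, stood at 19.9, 27.3, 29.3 and 38.4 CPM in the parental and at 60.6, 31.6, 46.8 and 53.5 CPM in the restored-labelled libraries. Restored-labelled replicate 2 fell below parental replicate 4, so the groups overlapped. The log2 fold change was 0.75 (1.68-fold, SE 0.23, edgeR adjusted p = 0.0434), and the exact two-sided permutation p was 0.0571. This call rested on several libraries. It was lost without parental replicate 1, 2 or 3 and without restored-labelled replicate 1, 3 or 4, at edgeR adjusted p between 0.0545 and 0.117, and without both replicates 1 the log2 fold change was 0.48. Neighbouring genes had a median of 0.54, leaving 0.21 for CSNK1A1. Of its exon bases, 37.4% are shared with a gene on the same strand that held 88 to 397 counts, and how shared reads were assigned is not given in the sources used here.

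CTNNB1 (ENSG00000168036, chromosome 3, 41194741 to 41260096, plus strand), which encodes beta-catenin itself, was among the best covered members, with 1088 to 9491 counts per library. It reached 96.8, 166.5, 215.1 and 220.8 CPM in the parental and 340.5, 177.5, 290.6 and 321.2 CPM in the restored-labelled libraries. In 3 of the 4 restored-labelled libraries it was above every parental library, and restored-labelled replicate 2 lay among the parental values. The log2 fold change of 0.69 (SE 0.27, 95% confidence interval 0.11 to 1.28) did not pass the threshold (edgeR adjusted p = 0.0927; exact two-sided permutation p = 0.0857). Without restored-labelled replicate 2 it passed, at 0.86 (edgeR adjusted p = 0.0433), and without parental replicate 1, the lowest library, the value was 0.49. Without restored-labelled replicate 4 the edgeR adjusted p of CTNNB1 was 0.211.

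BTRC (ENSG00000166167, chromosome 10, 101354033 to 101557321, plus strand) encodes the F-box protein that recognises phosphorylated residues of the stretch shown above. Its coefficient of variation was 7.49% in the parental and 13.1% in the restored-labelled libraries. Parental libraries had 24.4, 22.4, 26.7 and 23.6 CPM and restored-labelled ones 30.6, 27.2, 34.9 and 36.4 CPM, without overlap. The log2 fold change of 0.41 (1.33-fold, SE 0.14) lay just outside the threshold at an edgeR adjusted p of 0.0587. BTRC passed without restored-labelled replicate 2 (edgeR adjusted p = 0.0447) and with the DESeq2 Wald test (DESeq2 adjusted p = 0.0305). Without parental replicate 2, restored-labelled replicate 3 or restored-labelled replicate 4 its edgeR adjusted p was 0.164, 0.154 and 0.166.

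Tankyrases attach poly-ADP-ribose to Axin and so mark it for degradation. TNKS (ENSG00000173273, chromosome 8, 9555914 to 9782346, plus strand) stood at 6.50, 7.99, 7.13 and 8.87 CPM in the parental and at 12.4, 10.6, 11.2 and 12.6 CPM in the restored-labelled libraries, which were all above the parental ones. TNKS rose by 0.62 on the log2 scale (1.54-fold, SE 0.17, edgeR adjusted p = 0.0263). The call was lost without parental replicate 2 or 3 and without restored-labelled replicate 3 or 4, at edgeR adjusted p between 0.0615 and 0.0794, in a range of 0.55 to 0.70 for the log2 fold change.

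TNKS2 (ENSG00000107854, chromosome 10, 91798312 to 91865276, plus strand), its close relative, stood at 11.3, 17.3, 17.7 and 19.1 CPM in the parental and at 22.2, 14.8, 21.0 and 29.7 CPM in the restored-labelled libraries. The groups overlapped through restored-labelled replicate 2, and TNKS2 did not pass (log2 fold change 0.43, SE 0.23, edgeR adjusted p = 0.214). Its 95% confidence interval, from -0.07 to 0.93, includes the value of TNKS.

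**Figure D1:**
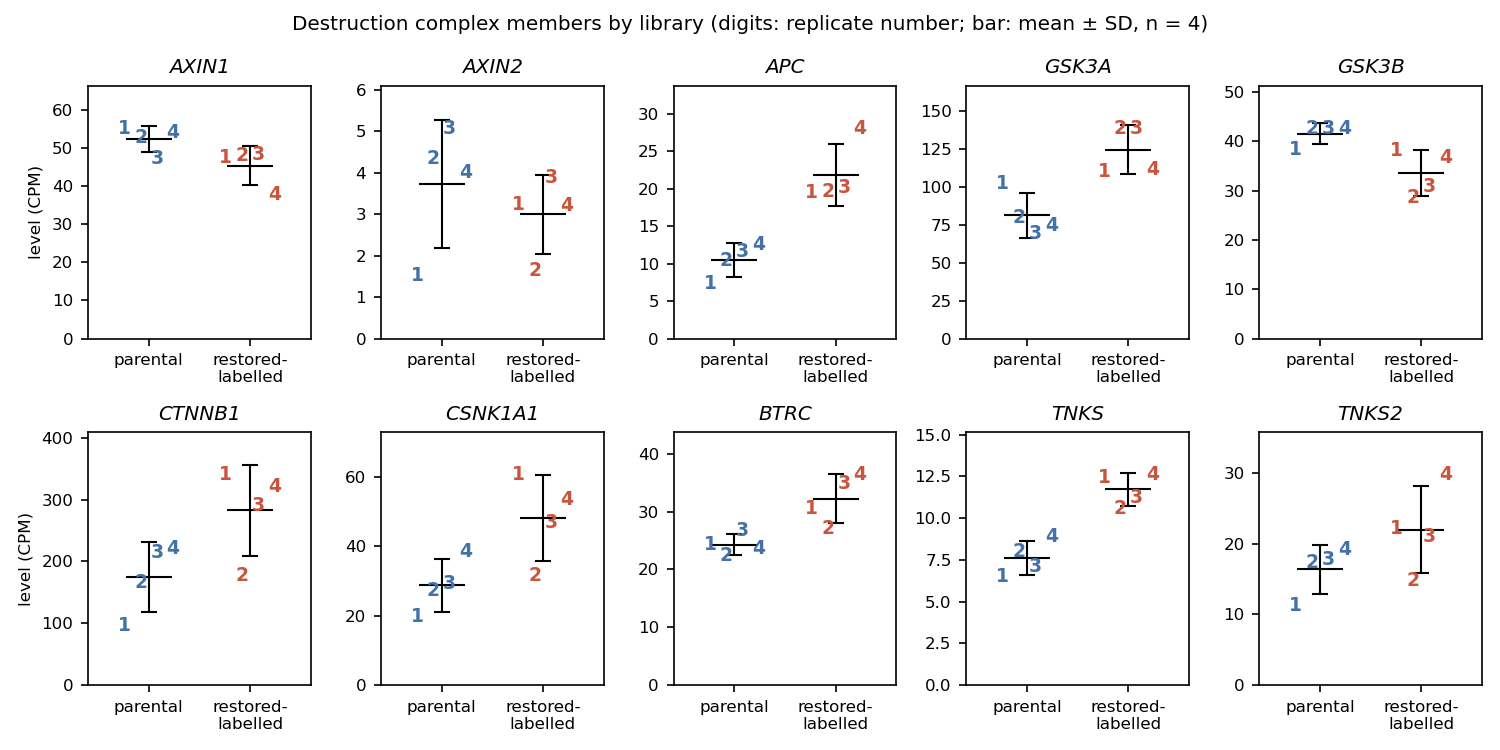
Level in CPM (vertical axis, from 0) of each of the 10 members in the parental (blue) and restored-labelled (red) libraries, with digits for replicate numbers and bars for the mean ± SD (n = 4). APC, GSK3A, BTRC and TNKS are higher in all 4 restored-labelled libraries than in any parental one, and AXIN1 is not.

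Counted over the members, 4 of 10 (APC, GSK3A, CSNK1A1 and TNKS) were higher at an edgeR adjusted p under 0.05 and 0 were lower. At an unadjusted p under 0.05 edgeR gave 6 higher and 1 lower, against 33.5% of all genes. DESeq2 called 5 higher and 0 lower, and limma-voom 4 and 0. Of all 14289 genes, 10.4% were called higher and 8.77% lower, 19.2% in all. The groups did not overlap in 5 members (APC, GSK3A, GSK3B, BTRC and TNKS), against 23.9% of all genes tested. The median log2 fold change was 0.52 over the members and 0.003 over all genes. With GC and length trends offset, 6 members passed, 5 higher and 1 lower. With 1 library left out the count ranged from 1 to 6. It was 1 without parental replicate 2, parental replicate 3 or restored-labelled replicate 3, 2 without restored-labelled replicate 4 and 6 without restored-labelled replicate 2. No member changed sign in any of the 19 alternative analyses.

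Both APC and CSNK1A1 lie on chromosome 5, where 31.4% of the 598 tested genes were called higher and 2.68% lower, at a median log2 fold change of 0.40. Without the genes of that chromosome, 2 members were called higher, GSK3A and TNKS. GSK3A lies on chromosome 19, whose 1082 tested genes had a median of 0.21, with 14.7% called higher. The chromosomes of CTNNB1 and GSK3B (chromosome 3) and of TNKS (chromosome 8) had medians of 0.011 and -0.0019. Over the 40 neighbouring genes CTNNB1 differed by 0.55, BTRC by 0.46, TNKS (37 neighbours) by 0.44 and GSK3B by -0.41 from the neighbours' median. Copy number was not measured, and its part in these values was not tested.

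**Figure D2:**
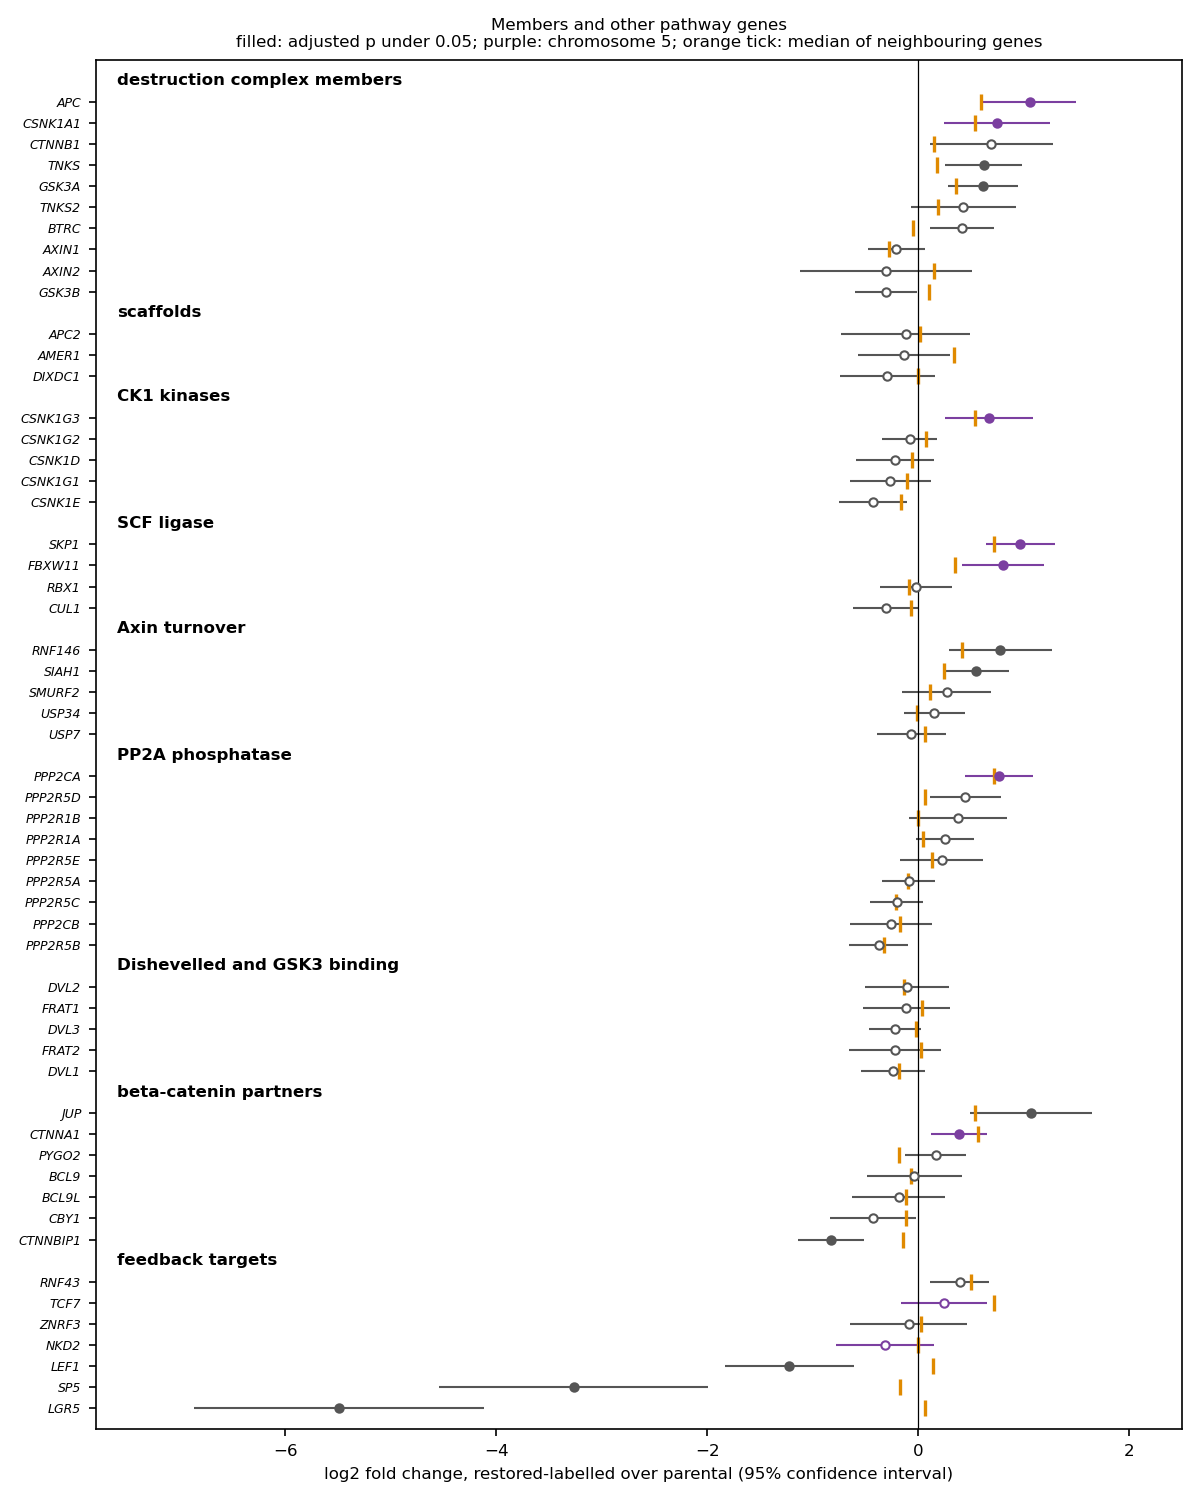
Log2 fold change, restored-labelled over parental, with 95% confidence intervals (horizontal axis) for the 10 members and the 45 tested genes of 8 pathway lists, ordered by value within a list. Filled points passed an adjusted p of 0.05, purple points lie on chromosome 5, and orange ticks give the median of neighbouring genes; 7 of the 12 genes called higher are purple.

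Levels of different members were compared as CPM per kilobase of exons. In the parental libraries GSK3A was the most abundant, at 19.7 CPM per kilobase ± 3.58 (SD, n = 4), followed by CTNNB1 at 14.7 ± 4.82, whose range overlapped that of GSK3A. Next came AXIN1 at 7.0 ± 0.467, separate from CTNNB1 above and from GSK3B below (5.10 ± 0.259). CSNK1A1 and BTRC followed at 3.72 and 3.67, overlapping each other, and TNKS2 at 2.66. The least abundant were APC at 0.842, AXIN2 at 0.714 and TNKS at 0.537, neighbours that overlapped in that order. The level of AXIN1 per kilobase was thus above that of APC in every parental library, as the lowest AXIN1 value was 6.33 and the highest APC value 1.01. In the restored-labelled libraries the order began likewise with GSK3A (30.2 ± 3.90) and CTNNB1 (23.7 ± 6.11). CSNK1A1 (6.24) then stood beside AXIN1 (6.06), BTRC (4.88) beside GSK3B (4.12), and each of these overlapped its neighbour. AXIN2 was the lowest at 0.573, overlapping TNKS at 0.826, and APC at 1.75 no longer overlapped either of its neighbours. Exon length was taken from the union of annotated exons, which can exceed the transcripts present. The order of GSK3A and CTNNB1 depends on these lengths, 4126 and 11927 bases. Before length scaling the mean of CTNNB1 was the higher, at 174.8 against 81.5 CPM in the parental and 282.4 against 124.7 CPM in the restored-labelled libraries.

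**Figure D3:**
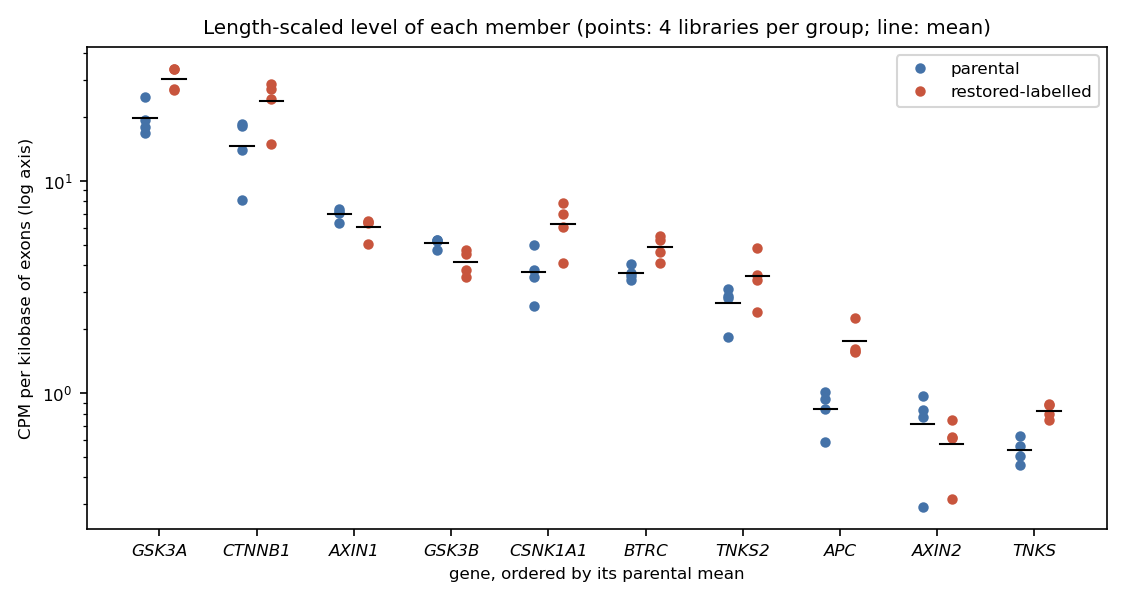
CPM per kilobase of exons (logarithmic vertical axis) of each member in the 4 parental (blue) and 4 restored-labelled (red) libraries, with lines for group means, ordered by the parental mean. GSK3A and CTNNB1 lead in both groups, and APC, AXIN2 and TNKS are the lowest.

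Ratios of related members, or of a member and its paralog, within each library do not depend on how libraries are scaled, and 6 were compared. A ratio can still carry the GC and length trends of a library where its genes differ, as AXIN1 (GC content 63.8%) and CTNNB1 (43.5%) do. The part of those trends in the ratios was not tested. The ratio of GSK3A to GSK3B counts was 2.67, 1.87, 1.62 and 1.74 in parental replicates 1 to 4 and 2.87, 4.86, 4.46 and 3.04 in the restored-labelled ones, so all of the latter were higher. The log2 ratio differed by 0.94 (SE 0.25; exact two-sided permutation p = 0.0286, 0.171 after Benjamini-Hochberg adjustment over the 6 ratios). None of the 6 ratios passed after adjustment. The AXIN1 to CTNNB1 ratio was 0.571, 0.317, 0.221 and 0.245 in the parental and 0.140, 0.271, 0.166 and 0.117 in the restored-labelled libraries, a log2 difference of -0.93 (SE 0.40, exact permutation p = 0.0857, adjusted 0.171). Restored-labelled replicate 2 again lay among the parental values. The log2 ratio of BTRC to its paralog FBXW11 differed by -0.39 (SE 0.16, exact permutation p = 0.0571, adjusted 0.171). The log2 ratios of APC to CTNNB1, TNKS to TNKS2 and AXIN1 to AXIN2 differed by 0.34 (SE 0.23), 0.22 (SE 0.19) and 0.04 (SE 0.52), with exact permutation p of 0.200, 0.314 and 0.886. AXIN1 was 35.5 times as abundant in counts as AXIN2 in parental replicate 1 and 28.4 times in restored-labelled replicate 2, against 9.26 to 14.7 times in the other 6 libraries.

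**Figure D4:**
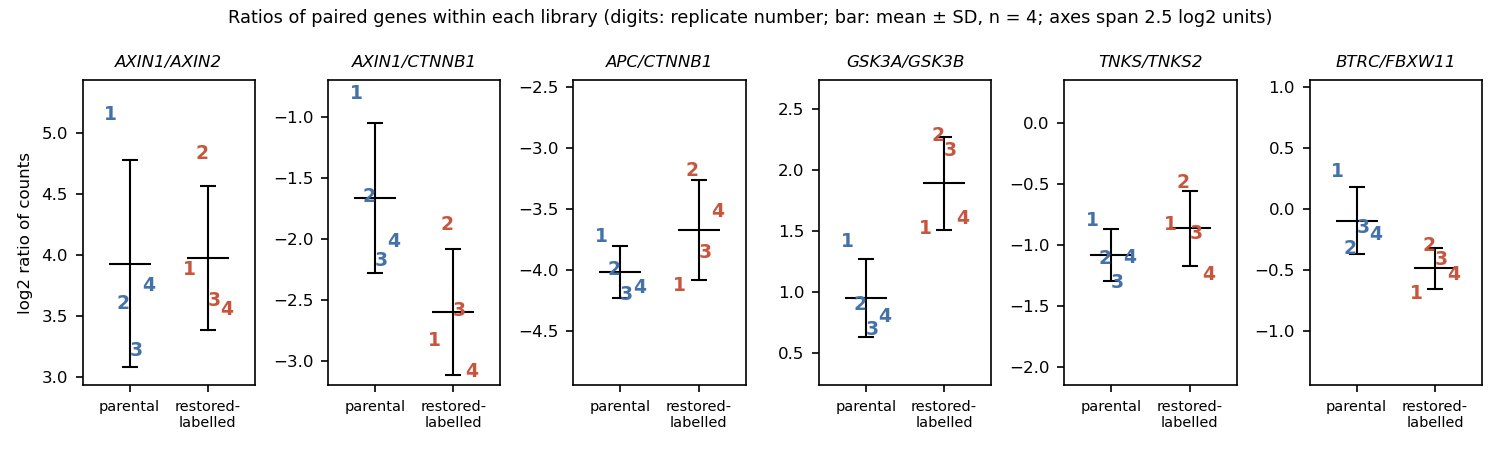
Log2 ratio of counts within each library (vertical axes of equal span) for 6 pairs of genes, by group, with digits for replicate numbers and bars for the mean ± SD (n = 4). The GSK3A/GSK3B values of the groups do not overlap, while the other pairs overlap or, for BTRC/FBXW11, nearly separate.

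Within a group, the same libraries were often at the low or high end for several members. Parental replicate 1 was the lowest parental library for 7 members (APC, AXIN2, CSNK1A1, CTNNB1, GSK3B, TNKS and TNKS2) and the highest for AXIN1 and GSK3A. Restored-labelled replicate 2 was the lowest of its group for 7 members, the same set with BTRC in place of APC, and the highest for GSK3A. Restored-labelled replicate 4 was the highest for APC, BTRC, TNKS and TNKS2 and the lowest for AXIN1. The transcript of AXIN1 has a GC content of 63.8%, and those of APC, CSNK1A1, GSK3B, TNKS2, TNKS, CTNNB1 and BTRC lie between 39.4% and 45.3%. With the offset for GC content and length the log2 fold change of AXIN1 was -0.10, that of CTNNB1 0.66 and that of APC 0.98. The within-group spread also differed among members. The coefficient of variation in the parental libraries was 5.08% for GSK3B, 6.67% for AXIN1 and 7.49% for BTRC, and 32.9% for CTNNB1 and 41.4% for AXIN2. In the restored-labelled libraries it was 8.37% for TNKS, the lowest there, 11.3% for AXIN1, 13.1% for BTRC, 13.7% for GSK3B, 25.8% for CTNNB1 and 31.8% for AXIN2.

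**Figure D5:**
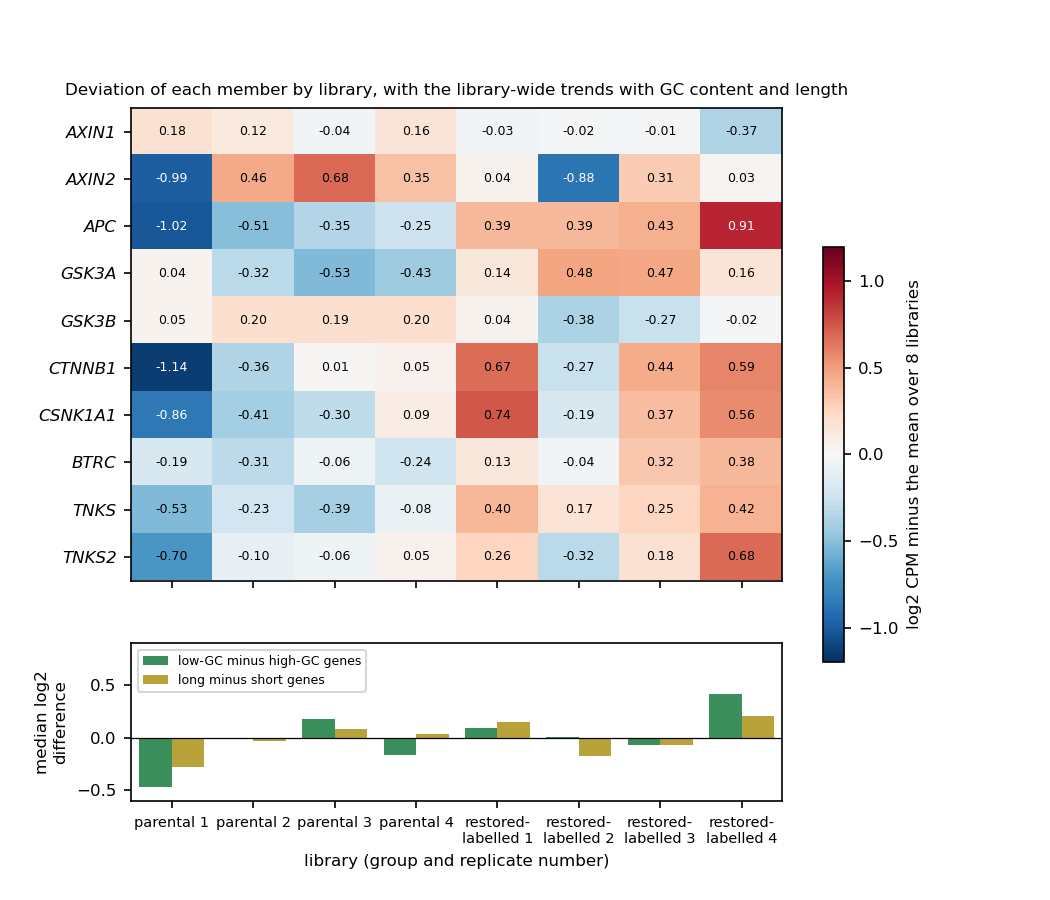
Deviation of each member's log2 CPM from its mean over the 8 libraries (colour and printed value, upper panel) above the median log2 difference between low-GC and high-GC genes and between long and short genes in the same libraries (bars, lower panel). Parental replicate 1 has the lowest value over all 8 libraries for APC, AXIN2, CSNK1A1, CTNNB1, TNKS and TNKS2 and the most negative bars, and restored-labelled replicate 4 has the highest bars.

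Other genes of the pathway were followed through 8 lists by role, 55 genes of which 45 could be tested. At an edgeR adjusted p under 0.05, 8 were higher, 4 were lower and 33 did not pass, and their median log2 fold change was -0.09. The share called was 26.7%, against 19.2% of all genes tested (10.4% higher and 8.77% lower). It includes SP5 and LGR5, which passed the expression filter through the parental libraries alone. DESeq2 called 16 of the 45. With 3 to 9 tested genes in each list, the counts by list are descriptions and are not read against that share. Of the 55 tested genes of both kinds, 9 lie on chromosome 5, and these supplied 7 of the 12 that were called higher.

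Among the 4 components of the ligase that BTRC serves, the adaptor SKP1 and the alternative F-box protein FBXW11, both on chromosome 5, were called higher. SKP1 rose from 65.4, 71.4, 83.8 and 55.2 CPM to 114.3, 136.7, 134.1 and 153.7 CPM (log2 fold change 0.97, SE 0.15, edgeR adjusted p = 0.0017). Its neighbours had a median of 0.72. A short stretch of its exons overlaps TCF7 on the opposite strand. FBXW11 rose from a mean of 26.2 to 45.6 CPM, by 0.80 on the log2 scale (SE 0.18, edgeR adjusted p = 0.0116), its neighbours having a median of 0.35. The scaffold CUL1 and the ring protein RBX1 did not pass, at -0.31 and -0.02.

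Of 6 other CK1 genes, 5 were tested and CSNK1G3 (chromosome 5) was called higher, by 0.67 (SE 0.19, edgeR adjusted p = 0.0318). The neighbours of CSNK1G3 had a median of 0.54. CSNK1A1L, the intronless copy of CSNK1A1, had 0 counts in all libraries. CSNK1D, CSNK1E, CSNK1G1 and CSNK1G2 had log2 fold changes from -0.43 to -0.08 and did not pass in edgeR, while DESeq2 also called CSNK1E lower. Of 9 subunits of the phosphatase PP2A, which opposes these kinases, the catalytic subunit gene PPP2CA (chromosome 5) was called higher, from means of 90.5 to 153.7 CPM (log2 fold change 0.76, SE 0.15, edgeR adjusted p = 0.00579). Its neighbours had a median of 0.72. The other 8 subunits, among them the second catalytic gene PPP2CB at -0.26, did not pass in edgeR. DESeq2 also called the regulatory subunit genes PPP2R5D higher and PPP2R5B lower (edgeR log2 fold changes 0.45 and -0.38). In the annotation 36.0% of PPP2R5D exon bases overlap MEA1 on the opposite strand, which held 1031 to 2666 counts.

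Of 5 genes that set the amount of Axin, RNF146 and SIAH1 were called higher. RNF146, the ubiquitin ligase that follows the tankyrases, rose from 6.59, 6.91, 9.89 and 8.52 CPM to 9.94, 11.8, 14.8 and 18.0 CPM (log2 fold change 0.78, SE 0.22, edgeR adjusted p = 0.0331). The ligase gene SIAH1 rose from a mean of 14.8 to 21.7 CPM (log2 fold change 0.55, SE 0.14, edgeR adjusted p = 0.0208). Neighbouring genes had medians of 0.42 for RNF146 and 0.25 for SIAH1. In the annotation 26.7% of SIAH1 exon bases overlap LONP2 on the opposite strand, which held 1054 to 3493 counts. With the GC and length offset SIAH1 no longer passed (log2 fold change 0.41). The deubiquitinases USP34 and USP7 and the ligase SMURF2 did not pass.

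None of the 3 tested scaffold genes (APC2, AMER1 and DIXDC1) and none of the 5 Dishevelled and FRAT genes passed in edgeR, where 0 had an unadjusted p under 0.05. DESeq2 and limma-voom also called 0 of them, DESeq2 with 1 unadjusted p under 0.05. The smallest p of each list belonged to DIXDC1 (log2 fold change -0.29) and DVL3 (-0.22). APC2, the paralog of APC, averaged 3.02 ± 0.691 (SD, n = 4) in the parental and 2.75 ± 0.716 CPM in the restored-labelled libraries, and its log2 fold change of -0.12 changed sign with the GC and length offset (0.13) and without parental replicate 4 (0.025).

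Of 7 partners of beta-catenin, JUP and CTNNA1 were called higher and CTNNBIP1 lower. CTNNBIP1, whose small protein keeps beta-catenin from TCF factors, fell from 20.6, 22.5, 25.4 and 23.5 CPM to 11.5, 12.7, 14.9 and 12.7 CPM, without overlap. Its log2 fold change was -0.83 (SE 0.14, edgeR adjusted p = 0.00325), with neighbours at -0.15. JUP, encoding plakoglobin, the closest relative of beta-catenin, rose by 1.07 on the log2 scale (SE 0.26, edgeR adjusted p = 0.0179), from 71.7, 44.4, 43.6 and 71.9 CPM to 190.7, 91.6, 109.5 and 93.9 CPM. Without restored-labelled replicate 1, its highest library, the log2 fold change of JUP was 0.76. The neighbours of JUP on chromosome 17 had a median of 0.53. CTNNA1 (alpha-catenin, chromosome 5) was called higher by 0.39 (SE 0.12, edgeR adjusted p = 0.0461), below the median of its neighbours, 0.56.

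Of 13 feedback targets, to which AXIN2 also belongs by function, 7 were tested and LEF1, SP5 and LGR5 were called lower while 0 were called higher. At an unadjusted p under 0.05 edgeR had 1 higher, RNF43, and DESeq2 called RNF43 higher after adjustment. The neighbours of RNF43 had a median of 0.50. LGR5 went from 4.81, 13.9, 15.5 and 18.5 CPM to 0.646, 0, 0.0986 and 0.234 CPM, and SP5 from 1.33, 2.44, 1.6 and 1.79 CPM to 0.323, 0, 0.296 and 0.039 CPM. In counts, LGR5 had 54 to 258 in the parental and 0 to 18 in the restored-labelled libraries, and SP5 15 to 36 and 0 to 9. LGR5 and SP5 passed the expression filter through the parental libraries alone, so only a lower call was open to them. LEF1 stood at 19.0, 28.7, 33.8 and 45.3 CPM in the parental and at 19.1, 9.16, 12.6 and 13.1 CPM in the restored-labelled libraries, where replicate 1 overlapped the parental range (log2 fold change -1.22, edgeR adjusted p = 0.0127). NKD2, RNF43, ZNRF3 and TCF7 did not pass, at log2 fold changes of -0.32, 0.39, -0.09 and 0.24, and the difference between AXIN2 and the 3 called targets was not tested.

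Of the 12 calls in the lists, FBXW11, SKP1, PPP2CA, CTNNBIP1, LEF1 and LGR5 held in all 19 alternative analyses and SP5 in the 18 that tested it. With 1 library left out, CSNK1G3 was lost without parental replicate 4 and without restored-labelled replicate 2, 3 or 4, and RNF146 without parental replicate 2 or 4 and restored-labelled replicate 3 or 4. SIAH1 was lost without parental replicate 3 or restored-labelled replicate 4 and JUP without parental replicate 2. CTNNA1 was lost in 11 of the 19 analyses.

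Genes whose log2 CPM followed AXIN1 most closely over the 8 libraries were sought among 12991 expressed genes. The 5 with the highest Pearson r were CFL1 (0.98), MRPL51 (0.97), FPGS (0.97), OTUB1 (0.97) and VPS72 (0.97), and 74 genes exceeded 0.9. With 8 libraries that share depth and composition trends, this ranking is a description. Spearman's rho of the 5 lay between 0.786 and 1.0. FPGS was the one called, at a log2 fold change of -0.48 (edgeR adjusted p = 0.0402), and the log2 fold changes of the other 4 lay between -0.26 and -0.22.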

How the data were processed

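Libraries of mRNA from 4 parental and 4 restored-labelled samples were grouped by sample title, and table columns were matched to samples by the description in the labels. The deposited values are raw counts per gene, which the authors left without normalization. Per the submitters' processing notes bcl2fastq, fastp 0.23.1, STAR 2.7.4 and GRCh38 were used. The counting program, annotation and use of strand are not given in the sources used here.

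Gene models came from GENCODE 29 (GRCh38), which held 57943 of the 58206 identifiers. The tests used edgeR 4.0.16 under R 4.3.3: filterByExpr (minimum count 10), TMM scaling, the quasi-likelihood test without covariates, two-sided, Benjamini-Hochberg adjustment over 14289 genes, threshold 0.05. Standard errors were derived from the F statistic, and log2 CPM uses a prior count of 2. Per library, 3 counts correspond to 0.108 to 0.267 CPM. Ratios within libraries (0.5 added to each count) and single genes were tested by exact permutation over 70 labelings. Library trends compare genes of at most 42.1% with those of at least 56.4% GC, and of at least 7109.5 with at most 2760 exon bases. On simulated counts from 14100 genes with 200 changed, 73% of 2-fold and 99% of 4-fold changes were recovered and 6.52% of 184 calls were false. The data gave 2738 calls, so the simulated share of changed genes was lower than the share called in the data. Changes under 2-fold, such as those of GSK3A, CSNK1A1 and TNKS, have no recovery figure here.

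Members, lists and the rule for naming genes (all members, each list gene with an adjusted p under 0.05 or else the one with the smallest p, paralogs, the 5 genes most like AXIN1) were chosen with earlier results of these data known. List genes outside that rule are named to account for whole lists. Alternatives were DESeq2 1.42.0 size factors and Wald test, upper-quartile and total-count scaling, other filters, limma-voom (limma 3.58.1), the replicate number as a block, a threshold of 0.01, thinning, a GC and length offset, and leaving out each library. Leaving out both replicates 1 and not counting chromosome 5 were added after seeing the data.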

Additional observations from a re-analysis of the deposited data

Results flagged for a closer look

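In 3 of 32 groups of 4 values examined (10 members and 6 ratios in both groups), a single library stood far from the other 3 by Dixon's criterion, where chance marks about 1 group in 20. AXIN1 was at 37.7 CPM in restored-labelled replicate 4, against 47.6 to 48.2 CPM in the other restored-labelled libraries. APC was at 28.1 CPM in the same library, against 19.5 to 20.1 CPM in the others. GSK3B was at 38.5 CPM in parental replicate 1, against 42.6 to 42.7 CPM in the other parental libraries. These are also the libraries at the ends of the low-GC against high-GC trend, at 0.42 and -0.47, and the part of that trend in the 3 values was not tested.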

How the results depend on the processing

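The number of members called was 4. It was 2 with the replicate block, 1 at an adjusted p under 0.01, 2 without chromosome 5, and 1 to 6 with 1 library left out. The number of genes called, 2738, was 964 at 0.01, 4623 without both replicates 1 and 1394 to 3523 with 1 library left out; with total counts only, 1724 were higher and 868 lower, against 1485 and 1253. Pathway calls, 12, were 5 at 0.01, 7 without chromosome 5, 16 with DESeq2 and 8 to 14 with 1 library left out.

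AXIN1, AXIN2, APC and TNKS2 stayed on their side of the threshold in all 19 alternatives. CSNK1A1 was lost with total counts only (log2 fold change 0.82), with the replicate block (0.74) and without both replicates 1 (0.48), and ranged from 0.61 to 0.92 with 1 library left out. TNKS was lost with no expression filter (0.65) and with the replicate block (0.62), in a range of 0.52 to 0.70 with libraries left out, and GSK3A ranged from 0.54 to 0.80. Calls were gained by GSK3B with the GC and length offset (-0.38) and without both replicates 1 (-0.41), by CTNNB1 with no filter (0.72; 0.39 to 0.86 with libraries left out) and by BTRC with total counts (0.50), DESeq2 (0.41), the offset (0.37) and without both replicates 1 (0.44; 0.35 to 0.49 with 1 library left out). APC2 changed sign with the offset (0.13) and without parental replicate 4 (0.025), and reached -0.25 without parental replicate 2. The log2 ratio difference of AXIN1 to AXIN2 ranged from -0.24 to 0.45, that of BTRC to FBXW11 from -0.47 to -0.26 and that of GSK3A to GSK3B from 0.81 to 1.09. With the replicate block the GSK3A to GSK3B difference was 0.94, at the smallest p that 4 pairs allow in an exact sign-flip test, 0.125. The cause of the other changes was not tested.

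Whether the replicate numbers pair the samples is not known. Deviations of same-numbered libraries from their group means correlated at -0.06, 0.007, -0.03 and 0.23 across genes. Number 4 alone matched best with itself. The replicate block gave 2033 genes and 9 pathway calls, without CSNK1G3, SIAH1 and CTNNA1. Among the members AXIN2 had the fewest counts, 17 to 90 per library.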
